A study of Mus musculus with 14 samples.

Results

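Axon guidance ligands and receptors were examined in mouse dorsal root ganglia, the clusters beside the spinal cord that hold the cell bodies of sensory neurons. Members were taken by gene symbol: semaphorins of classes 3 to 7, plexins, neuropilins 1 and 2, Slits, Robos, netrins with the netrin-Gs, the receptors Unc5 and Dcc, Eph receptors and ephrins. The rule found 74 of the 56691 genes in the 5xFAD table and 72 of the 20833 in the p75 table. In the first, 63 members had enough counts to be tested, and in the second 46 did. RNA sequencing gave 14 libraries in 4 groups. The 5xFAD table holds 4 libraries of 5xFAD mutants, transgenic mice that model Alzheimer disease with mutant human transgenes under a Thy1 cassette that is active in neurons, and 4 wild-type libraries. The p75 table holds 3 libraries labelled as knockouts on floxed p75 alleles (P75f/f) and 3 of P75f/f mice without the knockout, here called floxed. The knockout columns carry the word Adv, which the labels leave unexplained, and no Cre driver, age or sex is given. Replicates are numbered in both groups of each table, and nothing says that they came from separate animals, so every p-value below measures the spread between these libraries, which may be technical.

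Axon guidance proteins steer growing axons by attraction or repulsion and also act on blood vessels, glia and synapses. Class 3 semaphorins are secreted and bind neuropilins, which signal through plexins, while most other semaphorins are held in the membrane and bind plexins directly. Slits signal through Robo receptors, netrins through Dcc and Unc5 receptors, and ephrins bind Eph receptors on touching cells, with signals that can run in both directions. In sensory ganglia these families are best known for keeping developing sensory axons on their paths and for shaping their branches and endings.

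Total counts were 13907070 to 19837836 per library in the 5xFAD table and 4731119 to 6052690 in the p75 table. Levels are given as CPM, read counts scaled to the size of each library. Ngfr, which encodes p75, stood at 22.2, 24.9 and 37.7 CPM in knockout replicates 1 to 3, against 129, 124 and 91.1 CPM in floxed replicates 1 to 3, so its groups were apart while edgeR did not call it. In the 5xFAD table Ngfr was called lower, at 361 to 453 CPM in 5xFAD libraries against 638 to 717 CPM in wild-type ones. The labels name sensory neurons, but markers of other cells were abundant. The summed CPM of 14 pan-neuronal genes was 1160 to 1270 in 5xFAD and 603 to 778 in wild-type libraries, and that of 10 fibroblast genes was 2280 to 5550 in 5xFAD and 2320 to 5280 in wild-type libraries. Of the pan-neuronal genes 12 of 14 were called higher in 5xFAD, with a median log2 fold change of 1.36. Genes of Schwann cell myelin summed to 3370 to 4940 CPM in 5xFAD and 1630 to 3400 CPM in wild-type libraries with 0 of 10 called by edgeR. Endothelial genes summed to 601 to 1030 CPM in 5xFAD and 974 to 1400 CPM in wild-type libraries, with 0 of 10 log2 fold changes above 0 and 0 called by edgeR. Macrophage genes summed to 38.1 to 151 CPM in 5xFAD and 97.6 to 164 CPM in wild-type libraries. In bulk tissue, fewer cells of a type and less RNA per cell cannot be told apart, and the part of these markers in the differences below was not tested. In both genotypes libraries 3 and 4 of the 5xFAD table stood apart from libraries 1 and 2, and in the p75 table replicate 3 stood apart from replicates 1 and 2. With the split of the 5xFAD table as a term in the model, edgeR called 7 of the 10 myelin genes higher, and 5 of the 10 endothelial and 2 of the 9 tested macrophage genes lower in 5xFAD.

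In the 5xFAD ganglia, 5 of the 63 tested guidance genes changed. Sema6a and Slit1 rose, and Sema3a, Sema7a and Efnb2 fell (edgeR quasi-likelihood test, Benjamini-Hochberg adjusted p under 0.05 over all 15845 genes tested). That is 7.94% of the members, beside 3.6% of all genes called, of which 2.56% of genes were higher and 1.04% lower. All 5 are among the 36 tested ligands (3 semaphorins, 1 Slit and 1 ephrin). Of the 27 tested receptors edgeR called 0 and DESeq2 called 2, with 8 at an unadjusted edgeR p under 0.05. Of the 36 ligands DESeq2 called 8, with 15 at an unadjusted edgeR p under 0.05. The unadjusted p was under 0.05 in 23 members, against 16.2% of all genes. Of the 63, 42 had a log2 fold change below 0 and the median was -0.13, beside 49.6% of genes below 0 and a median of 0.00 over all genes. limma-voom called the same 5 (3.6% of all genes), and DESeq2 called 10 (6.49% of all genes), adding Plxna2, Plxnc1, Sema3b, Sema4f and Slit3.

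**Figure D1:**
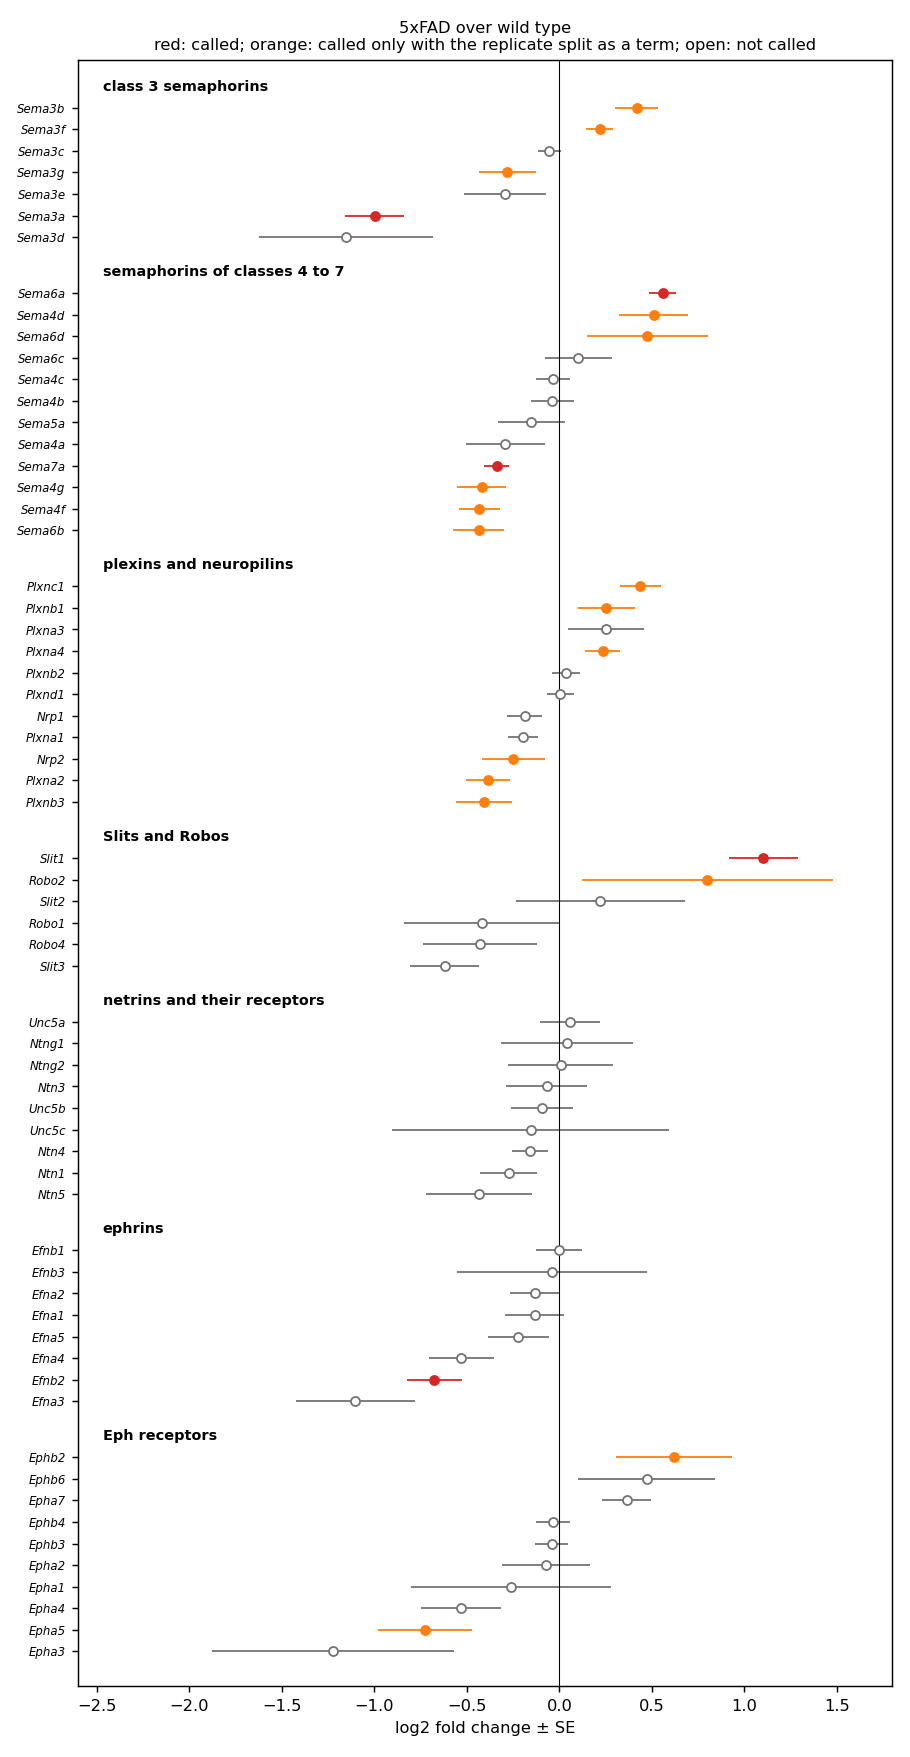
Log2 fold change of 5xFAD over wild type, with its standard error, for each of the 63 tested guidance genes, grouped by family (n = 4 libraries each). Red points mark the 5 genes that passed the edgeR test. Orange points were called only with the split of the replicates as a term, and open points were not called. Of the red points, Sema6a and Slit1 lie right of 0, and Sema3a, Sema7a and Efnb2 lie left of it. All 8 ephrins lie at or left of 0.

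Among the secreted class 3 semaphorins, 1 of 7 passed the test. Sema3a (ENSMUSG00000028883), which repels sensory axons through neuropilin-1 and A-type plexins, measured 4.83, 5.27, 7.16 and 6.15 CPM in 5xFAD replicates 1 to 4, against 13.7, 10.3, 12.2 and 10.4 CPM in wild-type replicates 1 to 4. Every 5xFAD library lay below every wild-type one. Its level fell by 0.999 on the log2 scale (SE 0.16), with an edgeR adjusted p of 0.00812. Sema3b, a secreted semaphorin that binds neuropilins, was the most abundant class 3 member, in CPM and also per kilobase of exon. Its values were 525, 553, 535 and 573 CPM in 5xFAD libraries, against 380, 319, 456 and 483 CPM in wild-type libraries. The groups did not overlap, but the log2 fold change of 0.42 (SE 0.12) missed the edgeR threshold (adjusted p = 0.0933) and passed in DESeq2 (adjusted p = 0.0194). Sema3d, another secreted member, averaged 2.27 ± 1.71 CPM in 5xFAD and 4.92 ± 1.31 CPM in wild-type ganglia (SD, n = 4 each), with overlapping groups and a log2 fold change of -1.15 (SE 0.47) that edgeR did not call. Sema3f, a ligand that acts through neuropilin-2, showed a log2 fold change of 0.22 (SE 0.07), and Sema3g had -0.28 (SE 0.15), neither called by edgeR. For Sema3c and Sema3e the log2 fold changes were -0.05 and -0.29.

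Of the semaphorins of classes 4 to 7, 12 of 13 were tested, 1 rose and 1 fell. Sema6a (ENSMUSG00000019647), a transmembrane ligand of plexin-A2 and plexin-A4, stood at 48.9, 49.9, 51.6 and 56.3 CPM in 5xFAD replicates 1 to 4, against 31.6, 36.6, 36.1 and 36.2 CPM in wild-type replicates 1 to 4. The lowest 5xFAD library was above the highest wild-type one. The log2 fold change was 0.56 (SE 0.07) with an edgeR adjusted p of 0.00303, the smallest of the 63 members. Sema7a (ENSMUSG00000038264), which is tied to the membrane by a lipid anchor and acts through plexin-C1 and integrin beta-1, stood at 107, 124, 115 and 108 CPM in 5xFAD libraries, against 138, 159, 141 and 138 CPM in wild-type libraries. The groups were apart here too. Sema7a fell by 0.34 on the log2 scale (SE 0.07, edgeR adjusted p = 0.0248), the smallest change of the 5. The call ended without 5xFAD replicate 1 (adjusted p = 0.0842), 5xFAD replicate 4 (0.0875) or wild-type replicate 1 (0.0618). Of the other members, Sema4d, the ligand of plexin-B1, averaged 29.3 ± 4.29 CPM in 5xFAD and 20.5 ± 5.24 CPM in wild-type ganglia (SD, n = 4 each), with all 5xFAD libraries above, and a log2 fold change of 0.51 (SE 0.19). Sema6b and Sema4g lay below wild type in every 5xFAD library, with log2 fold changes of -0.44 (SE 0.14) and -0.42 (SE 0.13). Sema4f showed a log2 fold change of -0.43 (SE 0.11) with overlapping groups, and Sema6d, a ligand of plexin-A1, had 0.48 (SE 0.33). edgeR called none of these 5.

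The plexins and neuropilins, the receptors of the semaphorins, were all tested and 0 of 11 passed in edgeR, while DESeq2 called 2 of them and 5 had an unadjusted edgeR p under 0.05. Plxnd1, the receptor of Sema3e, was the most abundant, at 485, 506, 475 and 472 CPM in 5xFAD replicates 1 to 4, against 481, 417, 520 and 513 CPM in wild-type replicates 1 to 4. The groups overlapped almost fully, with a log2 fold change of 0.01 (SE 0.08). Plxnc1, the receptor of Sema7a, averaged 19.7 ± 1.37 CPM in 5xFAD and 14.5 ± 1.94 CPM in wild-type ganglia (SD, n = 4 each). Its groups were apart, with all 5xFAD libraries above, and its log2 fold change was 0.44 (SE 0.11) (edgeR adjusted p = 0.0679, DESeq2 adjusted p = 0.0137). Plxna2, a receptor of Sema6a, averaged 66.9 ± 9.58 CPM in 5xFAD and 87.6 ± 11.8 CPM in wild-type ganglia (SD, n = 4 each). The lower values were those of 5xFAD, with overlap, and the log2 fold change was -0.39 (SE 0.12) (edgeR adjusted p = 0.134, DESeq2 adjusted p = 0.0489). Plxna4, the other receptor of Sema6a named above, showed a log2 fold change of 0.23 (SE 0.09). Plxnb1, the Sema4d receptor, showed a log2 fold change of 0.25 (SE 0.15). Nrp1, through which Sema3a acts, showed a log2 fold change of -0.19 (SE 0.09), and Nrp2 had -0.25 (SE 0.17).

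Among Slits and Robos, 6 of 7 were tested and 1 rose. Slit1 (ENSMUSG00000025020), a secreted ligand of Robo receptors, stood at 5.04, 5.33, 6.65 and 6.72 CPM in 5xFAD replicates 1 to 4, against 2.77, 3.09, 2.08 and 3.09 CPM in wild-type replicates 1 to 4. The groups were apart, at low levels in both. The log2 fold change was 1.10 (SE 0.19) with an edgeR adjusted p of 0.0108. Slit2, which in addition to repelling axons makes sensory axons branch, was the most abundant of the family at 88.6, 85.5, 262 and 209 CPM in 5xFAD libraries, against 126, 78.7, 207 and 140 CPM in wild-type libraries. Its values were highest in replicates 3 and 4 of each genotype, the groups overlapped, and the log2 fold change was 0.22 (SE 0.46). Slit3 averaged 26.9 ± 5.51 CPM in 5xFAD and 41.3 ± 9.26 CPM in wild-type ganglia (SD, n = 4 each), a log2 fold change of -0.62 (SE 0.19) that DESeq2 called (adjusted p = 0.0223) and edgeR did not (0.132). Robo2, a neuronal Slit receptor, stood at 13.6, 12.9, 53.5 and 38.3 CPM in 5xFAD libraries, against 7.95, 6.67, 33.2 and 19.2 CPM in wild-type libraries. Each 5xFAD library was above the wild-type one of its number, but the span between replicates was wider than the difference, and a log2 fold change of 0.80 (SE 0.68) was not called by edgeR. Robo4, the Robo of vessel endothelium, averaged 71.1 ± 29.5 CPM in 5xFAD and 96.0 ± 19.7 CPM in wild-type ganglia (SD, n = 4 each), and a log2 fold change of -0.43 (SE 0.31) was not called. The endothelial markers given above had a median of -0.40 on the log2 scale, and their part was not tested. Robo1 showed a log2 fold change of -0.42 (SE 0.42), and Robo3, at most 0.627 CPM in 5xFAD and 0.224 CPM in wild-type libraries, was not tested.

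No netrin or netrin receptor passed: edgeR and DESeq2 called 0 of the 9 tested, 0 had an unadjusted edgeR p under 0.05, and the log2 fold changes ran between -0.43 (Ntn5) and 0.06 (Unc5a). Ntn4, a netrin of basement membranes, was the most abundant, at 88.9, 83.5, 106 and 96.8 CPM in 5xFAD replicates 1 to 4, against 95.6, 93.7, 120 and 109 CPM in wild-type replicates 1 to 4. These groups overlapped, with a log2 fold change of -0.16 (SE 0.10). Ntn1, the classic floor plate attractant, averaged 33.1 ± 7.69 CPM in 5xFAD and 39.9 ± 4.17 CPM in wild-type ganglia (SD, n = 4 each), with a log2 fold change of -0.27 (SE 0.15). Dcc, its attractive receptor, had at most 0.107 CPM in a 5xFAD library and 0.412 CPM in a wild-type one and was not tested, and neither was Unc5d. Of the repulsive Unc5 receptors, Unc5b was the highest, with 16.8 ± 4.27 CPM in 5xFAD and 18.0 ± 1.47 CPM in wild-type ganglia (SD, n = 4 each).

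All 8 ephrins were tested and all 8 had a log2 fold change below 0, with a median of -0.18, while 1 passed. Efnb2 (ENSMUSG00000001300), a transmembrane ephrin that also marks arterial endothelium, stood at 29.8, 32.5, 45.0 and 40.4 CPM in 5xFAD replicates 1 to 4, against 69.7, 58.9, 59.4 and 47.8 CPM in wild-type replicates 1 to 4. The highest 5xFAD library was just below the lowest wild-type one. Efnb2 fell by 0.68 on the log2 scale (SE 0.15, edgeR adjusted p = 0.0388). Leaving out 1 library at a time, the call held in 2 of 8 fits, those without 5xFAD replicate 3 or wild-type replicate 4, and adjusted p in the others ran up to 0.115 (without wild-type replicate 1). The endothelial marker list given above had a median log2 fold change of -0.40 (0 of 10 called by edgeR, and 5 of 10 called lower with the split of the replicates as a term), and its part in the Efnb2 value was not tested. Efna3 and Efna4, ephrins held by a lipid anchor, were below wild type in every 5xFAD library, at log2 fold changes of -1.10 (SE 0.32) and -0.53 (SE 0.18), and edgeR called neither. Efnb1, the most abundant ephrin, stood at 79.4, 77.5, 101 and 97.7 CPM in 5xFAD libraries, against 84.3, 71.8, 96.4 and 103 CPM in wild-type libraries. Its groups overlapped throughout, with a log2 fold change of -0.002 (SE 0.13), a direction that turned under several settings. Of the 14 Eph receptors, 10 were tested and edgeR and DESeq2 called 0, while 3 had an unadjusted edgeR p under 0.05. Ephb2, a receptor of B-type ephrins, was the most abundant at 121, 122, 179 and 197 CPM in 5xFAD libraries, against 79.2, 57.9, 140 and 125 CPM in wild-type libraries. The groups overlapped, and both genotypes were higher in replicates 3 and 4. Its log2 fold change was 0.62 (SE 0.31). Epha5, a receptor of A-type ephrins, averaged 12.2 ± 3.97 CPM in 5xFAD and 20.1 ± 5.15 CPM in wild-type ganglia (SD, n = 4 each), with a log2 fold change of -0.73 (SE 0.26). Epha4, which binds ephrins of both types, showed a log2 fold change of -0.53 (SE 0.22), and Epha7 had 0.36 (SE 0.13).

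**Figure D2:**
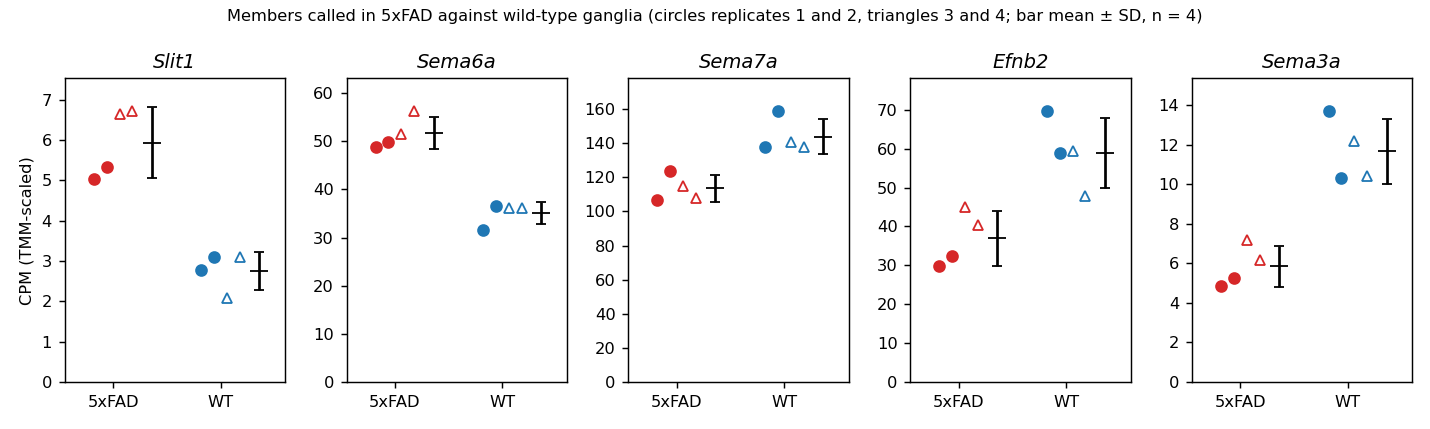
CPM of the 5 called guidance genes in each 5xFAD (left) and wild-type (right) library, 4 per group, each panel on its own linear axis from 0. Circles mark replicates 1 and 2, triangles replicates 3 and 4, and bars the mean ± SD of a group. Sema6a and Slit1 were higher and Sema3a, Sema7a and Efnb2 lower in every 5xFAD library than in any wild-type one. In Efnb2 the highest 5xFAD library stood at 45.0 CPM and the lowest wild-type one at 47.8 CPM.

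The 250 bases before the annotated start are shown for the 3 members that fell, so that their base composition can be compared (RefSeq sequence of build GRCm38.p6, 5′ to 3′ on the strand of the gene). Capitals mark each GC box, the letters GGGCGG, searched on both strands.
Sema3a promoter, chr5:13396534-13396783, plus strand: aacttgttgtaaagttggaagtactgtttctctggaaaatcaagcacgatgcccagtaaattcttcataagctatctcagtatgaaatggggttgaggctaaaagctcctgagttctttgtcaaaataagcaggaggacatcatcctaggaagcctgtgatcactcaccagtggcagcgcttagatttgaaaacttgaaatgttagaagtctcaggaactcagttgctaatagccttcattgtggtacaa
Sema7a promoter, chr9:57939862-57940111, plus strand: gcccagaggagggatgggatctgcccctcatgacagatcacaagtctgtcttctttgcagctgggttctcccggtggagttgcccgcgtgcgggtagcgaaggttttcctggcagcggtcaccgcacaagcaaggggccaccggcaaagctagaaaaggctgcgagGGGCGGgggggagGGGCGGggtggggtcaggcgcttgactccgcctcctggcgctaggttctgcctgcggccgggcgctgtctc
Efnb2 promoter, chr8:8661243-8661492, minus strand: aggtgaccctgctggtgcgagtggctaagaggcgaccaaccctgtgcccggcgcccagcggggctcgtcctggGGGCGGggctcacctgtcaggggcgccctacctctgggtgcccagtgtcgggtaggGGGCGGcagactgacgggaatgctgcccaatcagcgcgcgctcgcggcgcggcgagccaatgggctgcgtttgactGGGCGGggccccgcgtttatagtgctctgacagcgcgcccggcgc
The Sema3a window had a GC content of 40.8%, 2 CpG and 0 GC boxes. Sema7a had 66.4%, 17 CpG and 2 GC boxes, and Efnb2 72.0%, 27 CpG and 3 GC boxes. A GC box stood in 70.1% of the 77 member windows in the table, which cover 61 symbols, and in 32.7% of all 32851 windows of the same length. The median GC content was 64.4% in member windows and 52.4% in all. The match is a description of letters: the 3 members that fell differed widely in it, and nothing about a factor follows.

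Counting the groups' order alone, 5 members lay above wild type in every 5xFAD library (Sema6a, Slit1, Sema3b, Plxnc1 and Sema4d) and 7 lay below in every one (Sema3a, Sema7a, Efnb2, Efna3, Efna4, Sema4g and Sema6b). Over all genes tested, 6.61% lay wholly above and 4.47% wholly below. Per kilobase of exon, a scale on which genes can be compared, Sema3b was highest with 114 CPM per kilobase in 5xFAD and 85.7 in wild-type ganglia. Plxnd1 followed with 66.4 and 66.1, Plxnb2 with 44.4 and 43.3, and Sema7a with 34.5 and 43.6. In wild type Sema7a and Plxnb2 stood at nearly the same level. Sema3a (0.422 and 0.84) and Slit1 (1 and 0.466) were among the scarce ligands. The 11 members that were not tested include the receptors Robo3, Dcc, Unc5d, Epha6, Epha8, Epha10 and Ephb1, the ligand Sema5b and 3 antisense RNAs of Plxna4.

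Replicates 3 and 4 set against 1 and 2, with genotype in the model, differed in 25 of the 63 members (39.7%), beside 20.1% of all genes. Of these, 20 were higher and 5 lower in replicates 3 and 4, beside 10.7% and 9.44% of all genes. Robo2 was higher there by 1.81 on the log2 scale, Ntng1, a lipid-anchored netrin, by 1.02 and Sema6d by 0.86. Over the same split the median log2 difference was 1.09 for macrophage markers, 1.01 for fibroblast, 0.68 for Schwann cell myelin, 0.41 for satellite glia and non-myelinating Schwann cells, -0.50 for endothelial and -0.002 for pan-neuronal markers. Their part was not tested. With the split as a term in the model, edgeR called 22 members, 11 higher and 11 lower in 5xFAD (34.9%, beside 11.8% of all genes, 7.48% higher and 4.3% lower). The 5 named above were among them. The same model called 13 of 14 pan-neuronal and 7 of 10 myelin markers higher and 5 of 10 endothelial markers lower, and their part in these calls was not tested. The higher ones added were the ligands Sema3b, Sema3f, Sema4d and Sema6d and the receptors Plxna4, Plxnb1, Plxnc1, Robo2 and Ephb2. The lower ones added were the ligands Sema3g, Sema4f, Sema4g and Sema6b and the receptors Plxna2, Plxnb3, Nrp2 and Epha5. Sema6d reached a log2 fold change of 0.48 (SE 0.06, edgeR adjusted p = 0.000139), Robo2 0.83 (SE 0.19, 0.0275) and Epha5 -0.74 (SE 0.14, 0.00465).

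Within each pair of replicates on its own, the direction was the same in 49 of 63 members (77.8%), beside 66.4% of all genes. Sema6a had log2 fold changes of 0.53 in replicates 1 and 2 and 0.58 in replicates 3 and 4, and Sema7a had -0.37 and -0.32 in the same order. Sema3a had log2 fold changes of -1.27 and -0.77, and each of these 3 was called in both pairs by edgeR, which called 12.8% of all genes in replicates 1 and 2 and 4.8% in replicates 3 and 4. Slit1 had log2 fold changes of 0.81 in replicates 1 and 2 (edgeR adjusted p = 0.0527) and 1.36 in replicates 3 and 4 (adjusted p = 0.00961). Efnb2 had a log2 fold change of -0.33 in replicates 3 and 4 (edgeR adjusted p = 0.155) and -1.06 in replicates 1 and 2. The test of that difference, the interaction of genotype with the split, gave 0.72 on the log2 scale for Efnb2 (SE 0.16, edgeR adjusted p = 0.0496). Efnb2 was the 1 member called, which is 1.59% of the members, beside 1.19% of all genes. The interaction was not called with the size factors of DESeq2. Sema3d came next, with log2 fold changes of -0.32 in replicates 3 and 4 and -2.46 in replicates 1 and 2 (edgeR interaction adjusted p = 0.0651).

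**Figure D3:**
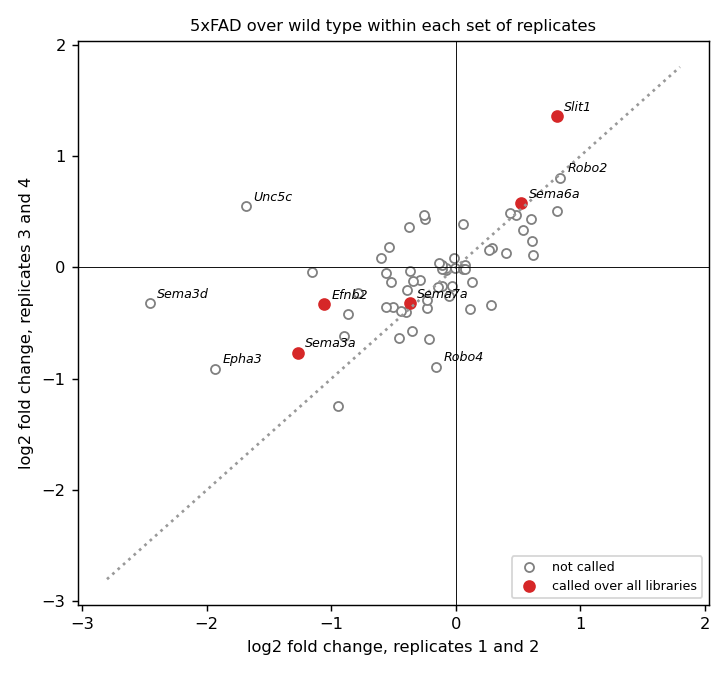
Log2 fold change of 5xFAD over wild type in replicates 1 and 2 (horizontal axis) against the same in replicates 3 and 4 (vertical axis), 1 point for each of the 63 members tested. The 49 members with equal sign lie in the lower left and upper right; Efnb2 lies left of the diagonal, at -1.06 and -0.33.

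Other genes of the pathway were taken apart from the symbol rule, and their counts stand beside the 3.6% of all genes called. Of 23 guidance partners, such as L1cam and the Nogo receptor Rtn4r, 1 rose and 0 fell, with a median of 0.10. The gene that rose was Cntn2, an axonal adhesion molecule, with a log2 fold change of 1.49 (SE 0.17, edgeR adjusted p = 0.00154). Of 42 effectors inside the cell, 3 rose and 0 fell, with a median of 0.01. All 3 encode collapsin response mediators, which pass semaphorin signals to the cytoskeleton: Crmp1 with a log2 fold change of 1.07 (edgeR adjusted p = 0.0124), Dpysl5 with 0.65 (0.0486) and Dpysl2 with 0.21 (0.0472). The other 2 of the family in the list had log2 fold changes of -0.21 (Dpysl3) and -0.05 (Dpysl4), neither called by edgeR. With the split as a term, 5 partners were called higher and 1 lower, and 5 effectors higher and 2 lower, beside 11.8% of all genes. Dpysl3 was then among the lower ones (edgeR adjusted p = 0.0298). Crmp1, Dpysl5 and Dpysl2 are also expressed in neurons. The pan-neuronal list stood higher in 5xFAD as given above, and its part in these 3 values was not tested.

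The p75 comparison asked which genes, secreted factors among them, were lower without p75. For the guidance genes no difference was called: 0 of 46 tested members in edgeR, beside 0% of all genes. limma-voom called 0 members and 0% of all genes, DESeq2 0 members and 0.0505% of genes, and edgeR with the replicate number as a block 0 members and 0.00841% of genes. At an unadjusted p under 0.05 edgeR had 1 member, Ntn4, beside 1.18% of all genes. DESeq2 had 2 members, beside 243 of 11890 genes. The medians were -0.07 over the members and 0.02 over all genes, with 22 members above and 24 below 0. The spread was wide, with a common dispersion of 0.3 against 0.023 in the 5xFAD table, and the standard errors of the members ran between 0.30 (Ntng1) and 1.45 (Ntn5) on the log2 scale. These errors are from the main fit, without the replicate block. In that fit the sizes called in 5xFAD, 0.34 to 1.10 on the log2 scale, lie within the range of these errors, so such differences could be missed. With the block the error was smaller for some members, such as Sema3b (0.206 against 0.896) and Epha5 (0.299 against 0.99). It was larger for others, such as Plxna2 (0.51 against 0.46). Which sizes could be detected for the members was not tested, with or without the block.

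**Figure D4:**
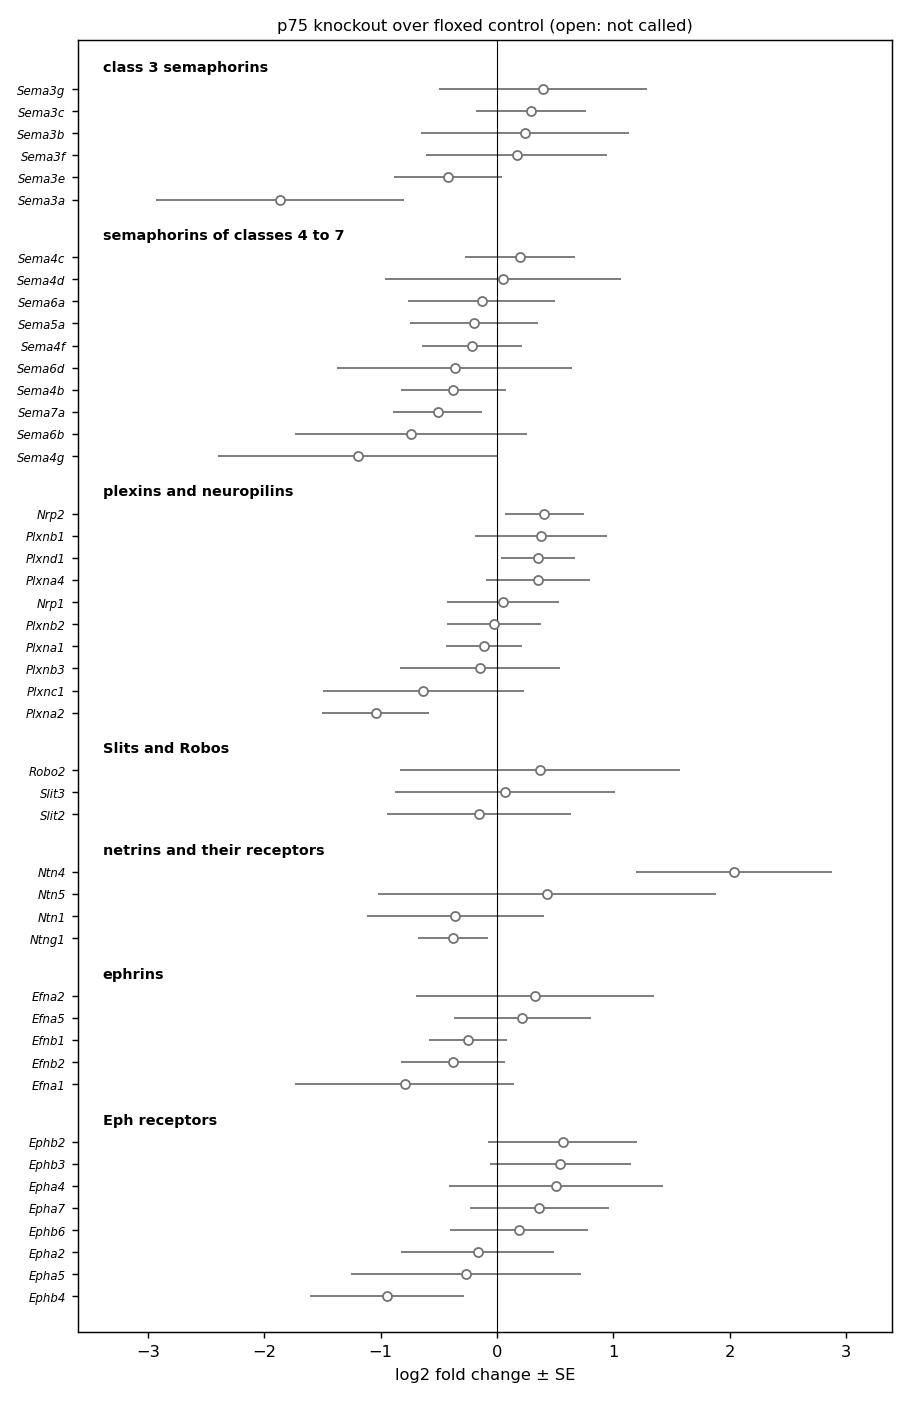
Log2 fold change of p75 knockout over floxed ganglia, with its standard error, for the 46 tested guidance genes by family (n = 3 libraries each). All points are open because none passed the edgeR test; Ntn4 lies farthest right at 2.04 and Sema3a farthest left at -1.87.

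Among the ligands, Ntn4 stood at 16.5, 49.2 and 7.76 CPM in knockout replicates 1 to 3, against 6, 10.1 and 1.72 CPM in floxed replicates 1 to 3. Each knockout library was above the floxed one of its number, while the groups overlapped. The log2 fold change was 2.04 (SE 0.84), and with the replicate block it was 1.96 (SE 0.44), not called by edgeR in either fit. Leaving out 1 library at a time moved it between 1.04 (without knockout replicate 2) and 2.66. Sema3a stood at 2.06, 2.84 and 3.70 CPM in knockout libraries, against 0.937, 4.59 and 26.1 CPM in floxed libraries. Floxed replicate 3 alone was far above the rest, and the value of -1.87 (SE 1.07) became 0.05 on the log2 scale without it. Sema7a stood at 11.5, 10.7 and 15.0 CPM in knockout libraries, against 17.2, 17.5 and 18.4 CPM in floxed libraries. All knockout libraries were below, with a log2 fold change of -0.51 (SE 0.38). Sema3b was the most abundant ligand, at 886, 1650 and 153 CPM in knockout libraries, against 900, 1200 and 174 CPM in floxed libraries. Replicate 3 was low in both groups, and a log2 fold change of 0.24 (SE 0.90) lies within its error. The same held for Sema6d, with 118, 123 and 12.9 CPM in knockout libraries, against 185, 130 and 11.3 CPM in floxed libraries and a log2 fold change of -0.37 (SE 1.01). Slit2 stood at 137, 57.7 and 15.3 CPM in knockout libraries, against 105, 103 and 25.6 CPM in floxed libraries, again lowest in replicate 3, with a log2 fold change of -0.16 (SE 0.79). Efnb1, the most abundant ephrin, stood at 39.5, 31.7 and 26.4 CPM in knockout libraries, against 40.5, 44.9 and 30.7 CPM in floxed libraries, with overlap and a log2 fold change of -0.25 (SE 0.34). For Sema3b, Sema6d, Slit2 and Efnb1 the groups overlapped. Ntng1, the most abundant gene of the netrin family, stood at 80.0, 57.9 and 67.0 CPM in knockout libraries, against 91.3, 102 and 73.3 CPM in floxed libraries, with overlap and a log2 fold change of -0.38 (SE 0.30).

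Among the receptors, Plxna2 had the smallest p of those below 0. It stood at 7.20, 8.74 and 5.11 CPM in knockout replicates 1 to 3, against 14.6, 11.3 and 17.5 CPM in floxed replicates 1 to 3, with all knockout libraries below and a log2 fold change of -1.04 (SE 0.46). Ephb4, the venous partner of ephrin-B2, stood at 3.70, 1.53 and 3.35 CPM in knockout libraries, against 6.56, 3.71 and 6.35 CPM in floxed libraries. The groups were just apart, with a log2 fold change of -0.95 (SE 0.66). Plxna2, Ephb4 and Sema7a were the 3 tested members wholly below the floxed group and 0 were wholly above, beside 2.99% and 2.72% of all genes. Nrp2, a receptor of class 3 semaphorins, stood at 73.7, 91.4 and 136 CPM in knockout libraries, against 79.9, 82.0 and 65.2 CPM in floxed libraries, with overlap and a log2 fold change of 0.41 (SE 0.34). Plxnd1 stood at 54.9, 48.5 and 39.1 CPM in knockout libraries, against 43.7, 36.8 and 31.2 CPM in floxed libraries, with overlap and a log2 fold change of 0.35 (SE 0.32). These 2 receptors had their highest values in different libraries, replicate 3 and replicate 1 of the knockout. Ephb3, another receptor of B-type ephrins, stood at 35.8, 17.7 and 20.3 CPM in knockout libraries, against 21.4, 24 and 5.15 CPM in floxed libraries, with overlap and a log2 fold change of 0.55 (SE 0.60). Epha5 was the most abundant receptor by far, at 1640, 1030 and 119 CPM in knockout libraries, against 1100, 2070 and 200 CPM in floxed libraries. Its groups overlapped and both were low in replicate 3, with a log2 fold change of -0.27 (SE 0.99).

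**Figure D5:**
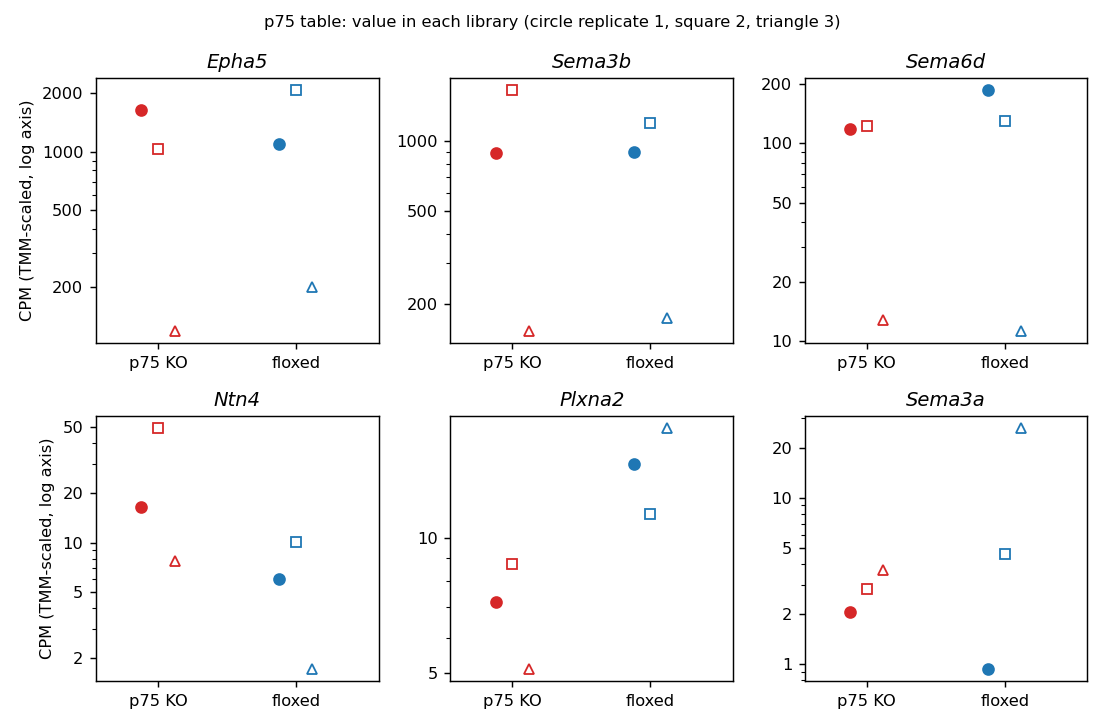
CPM of 6 guidance genes in each p75 knockout (left) and floxed (right) library, on log axes; circles, squares and triangles are replicates 1, 2 and 3. Epha5, Sema3b and Sema6d were low in replicate 3 of both groups, Plxna2 was lower in all knockout libraries, and in Sema3a floxed replicate 3 stood alone at 26.1 CPM.

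Replicate 3 set against replicates 1 and 2, with genotype in the model, differed in 15 of the 46 members (32.6%), beside 30.5% of all genes, with 1 higher (Plxnb2) and 14 lower, beside 14.8% and 15.7% of all genes. The log2 differences included -4.17 for Robo2, -3.50 for Sema6d, -3.23 for Epha5 and -2.82 for Sema3b. All members together made up 0.106% and 0.110% of the counts in replicate 3 of the knockout and floxed groups, and 0.354% to 0.487% in replicates 1 and 2. Epha5 and Sema3b weighed heavily in these shares. They held 7967 and 4308 of 19427 member counts in knockout replicate 1, and 677 and 867 of 6341 in knockout replicate 3. In floxed replicate 2 they held 11702 and 6816 of 26383, and in floxed replicate 3 1167 and 1012 of 6670. The share without them was not computed. Over the same split the median log2 difference was -2.07 for genes of Schwann cell myelin, -1.29 for satellite glia and non-myelinating Schwann cells, -1.23 for fibroblasts, 1.03 for macrophages and 0.55 for endothelium. Their part was not tested. Pan-neuronal genes summed to 264, 1350 and 1400 CPM in knockout replicates 1 to 3, against 1110, 711 and 966 CPM in floxed replicates 1 to 3. Their median log2 difference over the split was 0.06. Between genotypes, the median log2 fold change of 6 tested nociceptor genes was -2.64. edgeR called 0 of these, and 1 lower with replicate 3 as a batch term. The median of 9 tested genes of large myelinated neurons was 0.26. The part of these lists was not tested either. Of the 26 members not tested, Dcc, Efnb3 and Epha8 had 0 counts in every library, which allows up to 0.515 to 0.656 CPM at 3 counts per library. Slit1, called in the 5xFAD table, had 1.65, 2.19 and 0 CPM in knockout libraries and 0, 2.12 and 0 CPM in floxed libraries and was too scarce to test. Guidance partners (17 tested) and effectors (37 tested) had 0 calls by edgeR, with medians of -0.02 and 0.03.

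The tables were normalized separately, so levels between them are set side by side without a test. Sema3b led the ligands in both, with 188 CPM per kilobase in knockout and 159 in floxed ganglia. Epha5 stood at 55.6 and 67.0 CPM per kilobase in the p75 table, and at 0.73 in 5xFAD and 1.2 in wild-type ganglia. Plxnd1 stood at 6.51 and 5.10 in the p75 table, below its level in the 5xFAD table given above. Of the 5 members called in 5xFAD, Sema6a had -0.13 (SE 0.63), Sema3a -1.87 (SE 1.07), Sema7a -0.51 (SE 0.38) and Efnb2 -0.38 (SE 0.45) on the log2 scale in the p75 knockout, none of them called by edgeR. The Sema3a value rested on floxed replicate 3 and became 0.05 without it.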

How the data were processed

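RNA sequencing of mouse dorsal root ganglia gave 14 libraries in 2 tables. The authors' deposited values are raw counts per gene (whole numbers, with no scaling applied); a total RNA extraction with Trizol and an RNeasy kit is described per the labels' protocols, for cells or tissue alike. The build was GRCm39 per the submitters' processing notes, and which aligner or counter was used is not stated in the labels or headers. Groups came from titles and genotypes; the knockout columns, named P75-Adv, were matched to the knockout samples by number and by elimination.

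The members and the gene lists were chosen with earlier results of these data known. Each table was fitted on all its genes in R 4.3.3 with edgeR 4.0.16: filterByExpr, TMM scaling, robust quasi-likelihood tests and Benjamini-Hochberg adjustment at 0.05. CPM use TMM-scaled library sizes. Values per kilobase divide the mean CPM by the summed exon length of GENCODE M21 and are approximate, since that annotation is of an older build. Named were the called members, the most abundant of each family, with 0 calls the 4 smallest p in each direction, and members given for a role. Strand use in counting is not stated, so reads of Plxna4 and its antisense RNAs may mix.

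Alternatives were the test and the size factors of DESeq2 1.42.0, scaling by the upper quartile, voom of limma 3.58.1, a filter at 5 CPM or none, a block for the replicate number, the split of the replicates as a term, each pair of replicates alone, replicate 3 left out or as a batch term, and each library left out. DESeq2 with the block was chosen after seeing the data. Same-numbered libraries of the p75 table deviated together (correlations 0.349, 0.313 and 0.586), each above 0.1. The numbers were therefore treated as pairs in the fits with the replicate block, but not in the main fit. This pairing comes from the data and not from the labels, and the correlations do not separate numbers 1 and 2. Knockout 1 correlated more with floxed 2 (0.451) and knockout 2 more with floxed 1 (0.377). The code was tested on simulated data. At 4 against 4 libraries the smallest exact p is 0.0286, and at 3 against 3 it is 0.1. Floors (3 counts) cover counting error only.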

Additional observations from a re-analysis of the deposited data

Results flagged for a closer look

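Of the 126 groups of 4 libraries examined, about 1 in 20 is expected to hold a library far from the rest by chance. Among the called members, which make up only part of those groups, 2 had one. Sema6a stood at 31.6 CPM in wild-type replicate 1, below the 36.1 to 36.6 CPM of the other wild-type libraries. Sema7a stood at 159 CPM in wild-type replicate 2, above the 138 to 141 CPM of the other wild-type libraries. Both values lie on the same side of every 5xFAD library as the rest of their group, and why they stand apart was not tested.

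The interaction test called a difference in the change of Efnb2 in 5xFAD between the sets of replicates. That was 1 of the 63 members tested (1.59%), beside 1.19% of all genes. The change in replicates 3 and 4 minus that in replicates 1 and 2 was 0.718 on the log2 scale (SE 0.16, edgeR adjusted p = 0.0496), and it was not called with the size factors of DESeq2. The log2 fold change of 5xFAD over wild type was -0.33 in replicates 3 and 4, which was not called, and -1.06 in replicates 1 and 2.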

How the results depend on the processing

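In the 5xFAD comparison edgeR called 570 genes and 2 members higher and 3 lower. Under the DESeq2 test these counts became 1028, 4 and 6, in replicates 1 and 2 alone 2053, 10 and 11, and with the split of the replicates as a term 1866, 11 and 11. Replicates 3 and 4 alone gave 771 genes, 5 members higher and 7 lower. A mean of at least 5 CPM gave 404 genes, 1 member higher and 3 lower. Without 1 library the calls ran from 237 to 516 genes, from 2 to 3 members higher and from 1 to 4 lower; 237 genes were left without wild-type replicate 1, 283 and 323 without 5xFAD replicates 4 and 1, and 376 without 5xFAD replicate 2. Sema6a and Sema3a passed in every setting run over both genotypes, and Slit1 missed in replicates 1 and 2 alone and fell out of the test at 5 CPM. Efnb2 lost its call with no filter (edgeR adjusted p = 0.0732), while the calls over all genes rose to 698 of 30222 tested. The cause of these changes was not tested.

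Same-numbered libraries of the 5xFAD table correlated by 0.14, 0.35, 0.45 and 0.0994, the last under 0.1, so the samples are taken to share only a number; not every library correlated best with its own. With the replicate number as a block edgeR called 1622 genes and 11 members higher and 9 lower, and Efnb2 had an adjusted p of 0.119. In the interaction of genotype with the split, the size factors of DESeq2 left 0 members called.

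Of the p75 members, none was called under any alternative run. All genes called numbered 6 with DESeq2, 1 with the replicate block, 6 without replicate 3 and 1 with replicate 3 as a batch term. DESeq2 with the block, a setting chosen after seeing the data, called 18. The block changed the call of no member. Leaving out 1 library gave 0 to 0 genes.

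Directions turned only in members with no call. In 5xFAD, Efnb1 had 0.002 both at 5 CPM and with the block, and -0.092 to 0.075 without 1 library. Slit2 had -0.25 in replicates 1 and 2 alone and -0.11 (without 5xFAD replicate 3) to 0.48 without 1 library. Plxnd1 had -0.13 in replicates 3 and 4 alone and -0.059 to 0.036 without 1 library. In the p75 table the ranges without 1 library were -0.53 to 0.74 for Sema3b, -0.90 to 0.26 for Sema6d, -0.96 to 0.52 for Epha5, -1.10 to 0.32 for Slit2 and -2.41 to 0.054 for Sema3a. The p75 table had lower depth and a wider spread, and their part in its large standard errors was not tested.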
